A study of Mus musculus with 22 samples.

Results

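The 9 genes described here are the transcription regulators Olig1, Olig2, Sox10, Nkx2-2, Myrf, St18, Zfp488 and Tcf7l2 together with the deacetylase Sirt2, all known from the oligodendrocyte lineage. They were chosen by symbol, and all 9 had a row among the 20668 genes of the nuclei table and among the 16304 genes of the whole-cell table. The 22 mice were male, leptin-deficient ob/ob mice of 11 weeks that received a single intracerebroventricular (icv) dose of fibroblast growth factor 1 (FGF1, recombinant human, 3 µg) or of its vehicle, phosphate-buffered saline, and vehicle mice were fed the amount that FGF1 mice ate. Hypothalamic nuclei were sequenced from 3 FGF1 and 3 vehicle mice on Day 1 and from 2 FGF1 and 2 vehicle mice on Day 5. Dissociated cells were prepared on Day 5 from 6 further mice per treatment, with another dissection of the hypothalamus. Each library was 1 mouse, the ob/ob genotype was shared by all groups, and no lean mice enter any comparison. The comparisons ask how each cell type responds to FGF1 at each time.

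Oligodendrocytes, which wrap axons in myelin, arise from oligodendrocyte precursor cells (OPCs) through a short stage of committed precursors (COPs). The basic helix-loop-helix factors Olig1 and Olig2 and the HMG-box factor Sox10 are present from the start of the lineage. Nkx2-2, Zfp488 and Tcf7l2, a TCF/LEF partner of beta-catenin, are linked to the step from precursor to differentiating cell, and the membrane-bound factor Myrf switches on myelin genes. St18 is a zinc finger factor of the Myt family, and Sirt2 is a NAD-dependent deacetylase that is abundant in oligodendrocytes.

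Levels are unique molecular identifiers (UMIs) per 1000000 UMIs (CPM), summed over the cells of 1 type in 1 mouse and scaled by TMM (trimmed mean of M values). Some CPM values were not scaled by TMM. These are summed marker levels, vehicle levels summed by cluster, levels in nuclei split by marker UMIs and Sirt2 over the whole library. Nuclei libraries held 591 to 5768 barcodes and cell libraries 1967 to 7926, and 318 and 1791 barcode sequences, respectively, occurred in more than 1 library. Nuclei annotated as COP also carried OPC markers and are called OPC/COP nuclei here. Neuron marker UMIs were at 32.8 in oligodendrocyte nuclei, 27.4 in OPC/COP nuclei and 37.1 in unmapped neuron nuclei. These values are scaled to a common depth smaller than that of CPM. In CPM, the same markers were at 2386 to 2619 in OPC/COP nuclei of vehicle mice on Day 5. At least 3 UMIs of OPC and COP markers were held by 95.9% of OPC/COP nuclei and 38.6% of unmapped neuron nuclei. For oligodendrocyte markers these shares were 91.9% of oligodendrocyte nuclei and 3.83% of unmapped neuron nuclei. The part of neuron marker UMIs in the values of nuclei was not tested. Whole-cell clusters were named from markers that include none of the 9 genes: clusters 5 and 17 as OPC, cluster 9 as COP and clusters 2, 11 and 12 as oligodendrocytes (OL). Cluster 9 also met the naming rule for 4 OL markers. Its summed OL markers in vehicle mice were at 13791 to 40944 CPM, beside 34337 to 42145 CPM in cluster 2 and 1645 to 3861 CPM in OPCs. The paper used Gpr17, a top gene of cluster 9, as a proxy for COPs and newly formed oligodendrocytes. The 2 stages were not separated here, and COP cells means all of cluster 9. OPC/COP nuclei on Day 5 numbered 85 and 202 in FGF1 mice and 52 and 17 in vehicle mice, and COP cells numbered 174 to 372 per FGF1 mouse and 16 to 51 per vehicle mouse.

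By the GENCODE annotation of GRCm38, the build of the deposited counts, Sirt2 lies at chr7:28766735-28788661 on the plus strand and overlaps Nfkbib on the minus strand. St18 (chr1:6487231-6860940), Tcf7l2 (chr19:55741820-55933654, overlapping Ppnr) and Olig2 (chr16:91225457-91228677) lie on the plus strand. The paper counted Chromium 3' libraries with Cell Ranger at default parameters and does not state how the strand was used. The part of Nfkbib reads in the Sirt2 counts was not tested. RefSeq promoters were found for 5 of the 9 genes, and those of Sirt2 and Tcf7l2 are shown because both genes rose in OPC/COP nuclei on Day 5. Tcf7l2 has 2 RefSeq starts, of which the first is printed. Each is the 250 bases before the RefSeq start in GRCm38.p6 on the plus strand, chr7:28766502-28766751 for Sirt2 and chr19:55741560-55741809 for Tcf7l2, with SOX-type matches in capitals.
Sirt2: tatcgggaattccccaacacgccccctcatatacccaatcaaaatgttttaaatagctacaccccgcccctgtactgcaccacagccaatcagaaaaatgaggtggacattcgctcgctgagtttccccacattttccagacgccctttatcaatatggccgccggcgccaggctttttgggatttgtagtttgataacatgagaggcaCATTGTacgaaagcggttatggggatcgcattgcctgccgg
Tcf7l2: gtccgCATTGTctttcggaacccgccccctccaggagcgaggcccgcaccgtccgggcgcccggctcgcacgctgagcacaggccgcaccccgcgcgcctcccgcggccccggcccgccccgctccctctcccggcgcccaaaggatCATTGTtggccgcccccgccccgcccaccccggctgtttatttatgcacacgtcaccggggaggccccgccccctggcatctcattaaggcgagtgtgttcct
The letters searched were ACAAAG and ACAATG on both strands, so that a match can also read CTTTGT or CATTGT. Sirt2 held 1 match and Tcf7l2 held 2, against at least 1 match in 25.2% of 32851 mouse promoters. Of the other members with a promoter, Olig2 held 1 match, and Nkx2-2 and Zfp488 held 0. ACAATG was added after ACAAAG alone, found in 16.5% of promoters, had no match in either window printed. The window of the second Tcf7l2 start, chr19:55895071-55895320, held 1 match, to ACAAAG. The E-box CANNTG, its own reverse complement and present in 66.2% of promoters, was not in any of the 3 windows of Sirt2 and Tcf7l2.

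In vehicle cells on Day 5, levels of the 9 genes varied by stage. Olig1 and Olig2 had their highest means in OPCs, at 1466 ± 164 and 552 ± 40.3 CPM (mean ± SD, n = 6 mice). Olig2 was at 306 ± 80.9 CPM in COPs and 115 ± 20.8 CPM in cluster 2, the largest OL cluster. All OPC values of Olig2 (485 to 604 CPM) lay above all COP values (217 to 427 CPM), whereas OL cluster 11 (129.6 to 525 CPM) overlapped both. Olig1 was at 1095 ± 273 CPM in cluster 11 and 619 ± 139.5 CPM in COPs, with ranges that overlapped, and the range of cluster 11 (648 to 1440 CPM) also overlapped that of OPCs (1275 to 1637 CPM).

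Sox10 was at 402 ± 32.5 CPM in OPCs, 430.3 ± 89.8 CPM in COPs and 404 ± 193 CPM in cluster 11, values that overlapped, and at 215 ± 32.9 CPM in cluster 2. Nkx2-2 had its highest mean in COPs, 177 ± 131 CPM, but this rested on 71 UMIs, and single mice (0 to 365 CPM) spread around those of OPCs (76.5 to 114 CPM). Astrocytes held 44.3 ± 9.96 CPM of Nkx2-2, overlapping cluster 2 (38.2 ± 14.6 CPM). Zfp488 was highest in COPs (73.7 to 198 CPM), just above OPCs (35.7 to 72.9 CPM).

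Myrf and St18 were low in OPCs and higher in later cells. Myrf was at 19.2 to 35.7 CPM in OPCs, 309 ± 71.8 CPM in COPs and 435 ± 163 CPM in cluster 11. St18 was at 1.39 ± 1.96 CPM in OPCs, beside 2.06 ± 2.15 CPM in astrocytes, and had means of 77.8 to 98.0 CPM in COPs, the OL class and its clusters. The ranges of COPs and OL clusters overlapped for both genes.

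Tcf7l2 and Sirt2 peaked in COPs. Tcf7l2 was at 1147 ± 413 CPM there, 233 ± 45.4 CPM in tanycytes, 108 ± 14.6 CPM in OPCs and 74.7 ± 10.8 CPM in cluster 2. Sirt2 was at 4494 ± 309.7 CPM in COPs, 1976 ± 128 CPM in cluster 11, 873 ± 219.5 CPM in cluster 12, 573 ± 117 CPM in cluster 2 and 431 ± 109.8 CPM in OPCs. In that order COPs, cluster 11 and cluster 12 did not overlap, whereas cluster 12 overlapped cluster 2, and cluster 2 overlapped OPCs. With every cell thinned to 1000 UMIs, 93.7% of vehicle COP cells had a Sirt2 UMI (98.2% unthinned, median depth 1940 UMIs), and so did 12.5% of vehicle microglia (median 1242 UMIs). Thinning left out 6 of 164 COP cells and 226 of 956 microglia with fewer UMIs. The clusters were formed on all genes, so these levels are a description.

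**Figure D1:**
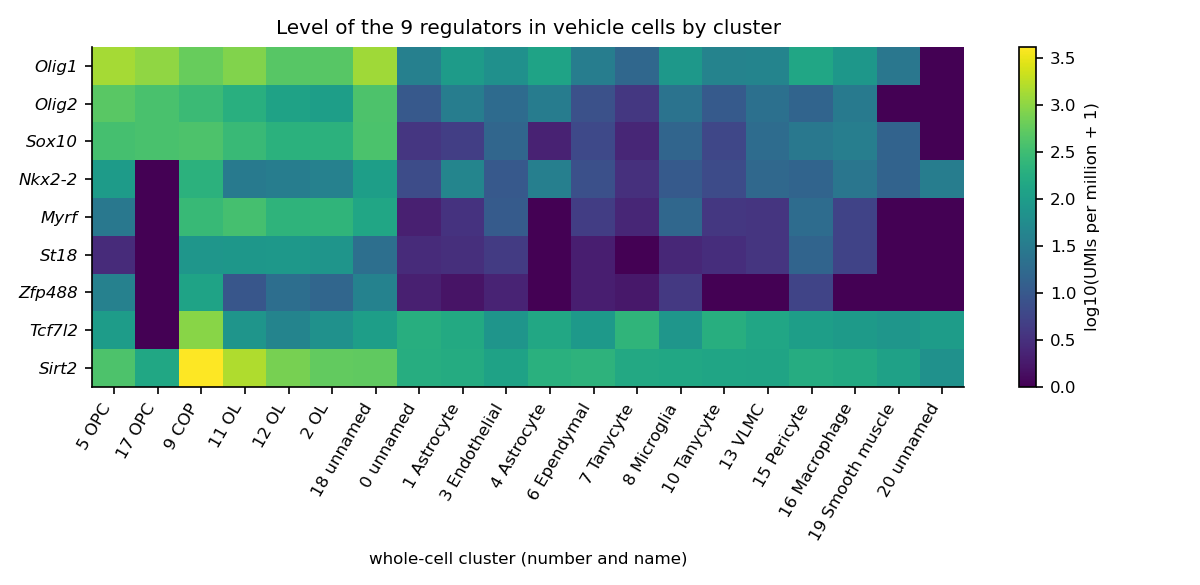
Level of each of the 9 regulators (rows) in vehicle whole cells summed by cluster (columns), as log10 of CPM plus 1. Sirt2 and Tcf7l2 are brightest in cluster 9 (COP), Olig1 and Olig2 in cluster 5 (OPC), and Myrf in cluster 11.

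Patterns were compared on the summed vehicle level of each of the 20 clusters with at least 50 cells in both groups together, of which cluster 17 held 11 and cluster 20 held 22 vehicle cells. St18 and Myrf (Pearson r = 0.94) and Olig1 and Olig2 (r = 0.94) had the most alike patterns among the 9 genes, and Tcf7l2 and Sox10 the least (r = -0.31). Among other genes with at least 50 CPM in a cluster, the pattern closest to Sirt2 was that of Bfsp2 (r = 0.93), to Tcf7l2 that of Ankrd10 (r = 0.94), to St18 that of the myelin gene Mbp (r = 0.93) and to Myrf that of the potassium channel gene Kcna1 (r = 0.97). The closest to Olig1 was Lrp1b (r = 0.95), to Olig2 Anks1b (r = 0.96), to Sox10 Edil3 (r = 0.94), to Zfp488 Dusp15 (r = 0.89) and to Nkx2-2 Vldlr (r = 0.84). These points share libraries and differ in the number of cells behind them.

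In nuclei, St18 was the most abundant of the 9 in oligodendrocytes, at 507 ± 133 CPM in vehicle mice on Day 1 (n = 3) and 502 ± 103 CPM on Day 5 (n = 2), where each gene's own length and introns bear on its count. Olig1 and Olig2 were low in vehicle OPC/COP nuclei of Day 5, at 46.7 ± 9.60 and 25.2 ± 2.00 CPM (n = 2). Outside the lineage, Tcf7l2 reached 507 ± 64.9 CPM in vascular and leptomeningeal nuclei and 457 ± 8.80 CPM in Glu4 neurons on Day 1. Olig2, Nkx2-2 and Zfp488 did not pass the count filter in any FGF1 comparison of lineage nuclei, and Olig1 passed in 1, so whole cells carry the tests of these genes.

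On Day 1, 24 h after FGF1, none of the 9 genes was called in lineage nuclei. In oligodendrocyte nuclei 5 of 9 passed the filter and edgeR called 0 at a false discovery rate (FDR) under 0.05, where 0.222% of 7192 genes were called. In OPC/COP nuclei 4 passed and 0 were called, against 0.0892% of 4485 genes. In each type 0 members had an unadjusted p under 0.05 and DESeq2 called 0. St18 in OPC/COP nuclei was at 181, 248 and 276 CPM in FGF1 mice and 218, 284 and 287 CPM in vehicle mice. Sirt2 was at 195, 199.6 and 212 CPM in FGF1 mice and 175, 182 and 202 CPM in vehicle mice. Both genes overlapped between groups.

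Tcf7l2 in OPC/COP nuclei on Day 1 was at 129, 163 and 218 CPM in FGF1 mice and 71.7, 104 and 129 CPM in vehicle mice, ranges that met at their edge (log2 fold change 0.73 ± 0.35, SE, edgeR FDR 0.83). Sox10 was at 115, 132 and 146 CPM in FGF1 mice and 158, 188 and 252 CPM in vehicle mice, without overlap (-0.62 ± 0.31, edgeR FDR 0.842), and 12.4% of genes there did not overlap. Olig2, not tested, also did not overlap, at 32.5, 42.3 and 52.2 CPM in FGF1 mice and 11.2, 16.5 and 27.3 CPM in vehicle mice from 24 and 10 UMIs. Of the other members not tested there, Nkx2-2 was higher without overlap, at 16.3 to 31.3 CPM against 5.52 to 11.2 CPM (13 and 5 UMIs). Myrf was lower without overlap, at 6.96 to 16.3 CPM against 16.4 to 16.8 CPM (5 and 9 UMIs). In oligodendrocyte nuclei, Tcf7l2 was at 44.2, 49.0 and 55.8 CPM in FGF1 mice and 29.5, 39.0 and 41.0 CPM in vehicle mice, again without overlap, as were 11.3% of genes (0.43 ± 0.36, edgeR FDR 0.952). Myrf was at 31.5, 44.2 and 59.9 CPM in FGF1 mice and 16.4, 26.0 and 38.3 CPM in vehicle mice (0.74 ± 0.44, edgeR FDR 0.928).

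Some summed marker levels differed between these groups and others did not. The summed level of 6 OPC markers in OPC/COP nuclei on Day 1 was 2127 to 4111 CPM with FGF1 and 1225 to 1926 CPM with vehicle, with 6 of 6 markers higher on average with FGF1. COP markers there overlapped, at 179 to 514 CPM with FGF1 and 229.8 to 509 CPM with vehicle, while astrocyte markers, at 338 to 419 CPM with FGF1 and 483 to 657 CPM with vehicle, and OL markers, at 682 to 730.2 CPM with FGF1 and 745 to 1149 CPM with vehicle, were lower without overlap. The summed level of 8 OL markers in oligodendrocyte nuclei was 1103 to 2216 CPM with FGF1 and 2244 to 3077 CPM with vehicle, with 1 of 8 higher, and that of COP markers in the same nuclei was 104 to 214 CPM with FGF1 and 56.8 to 93.6 CPM with vehicle. Of these oligodendrocyte nuclei, 70.7 to 84.2% per FGF1 mouse and 93.4 to 96.6% per vehicle mouse held at least 3 UMIs of OL markers. Their part in the values above was not tested.

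By Day 5, OPC/COP nuclei of FGF1 mice held more St18, Sirt2 and Tcf7l2 than those of vehicle mice. Of 9 genes, 6 passed the filter and 3 were called, all higher with FGF1, where 1.28% of 5767 genes were called. St18 was at 907 and 1035 CPM in FGF1 mice and 53.2 and 125 CPM in vehicle mice, 9.69-fold higher (log2 fold change 3.28 ± 0.33, edgeR FDR 6.89e-07), rank 2 by p among the genes tested. Both FGF1 values lay far above both vehicle values. With 1 mouse left out, the log2 fold change of St18 ran from 2.99 to 4.24.

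Sirt2 was at 575 and 963 CPM in FGF1 mice and 79.8 and 131 CPM in vehicle mice, 6.84-fold higher (2.77 ± 0.34, edgeR FDR 1.24e-05). Tcf7l2 was at 290.2 and 412 CPM in FGF1 mice and 106 and 119 CPM in vehicle mice, 3.09-fold higher (1.63 ± 0.32, edgeR FDR 0.00535). The groups did not overlap for either gene, which with 2 mice against 2 held for 39.8% of genes. The call of Tcf7l2 was lost with DESeq2 (adjusted p = 0.0571) and without FGF1 mouse 45 (1.36, edgeR FDR 0.175).

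Myrf was at 39.1 and 39.1 CPM in FGF1 mice and 0 and 13.3 CPM in vehicle mice. This rested on 37 UMIs against 1, a ratio per UMI sequenced of 9.52 with a 95% exact interval of 1.61 to 386 that covers counting error only, and it was not called (edgeR FDR 0.213). Sox10 was at 170.2 and 317 CPM in FGF1 mice and 160.4 and 173 CPM in vehicle mice (0.59 ± 0.34, edgeR FDR 0.6), and Olig1 at 13.6 and 41.9 CPM in FGF1 mice and 39.9 and 53.5 CPM in vehicle mice (-0.94 ± 0.65, edgeR FDR 0.707). Of the members not tested, Zfp488 was at 16.7 and 18.7 CPM in FGF1 mice and 0 and 11.9 CPM in vehicle mice (17 and 2 UMIs). Olig2 was not higher with FGF1, at 18.7 and 22.3 CPM in FGF1 mice and 23.8 and 26.6 CPM in vehicle mice (19 and 6 UMIs), nor was Nkx2-2, at 19.5 and 34.0 CPM in FGF1 mice and 29.7 and 39.9 CPM in vehicle mice (27 and 8 UMIs).

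**Figure D2:**
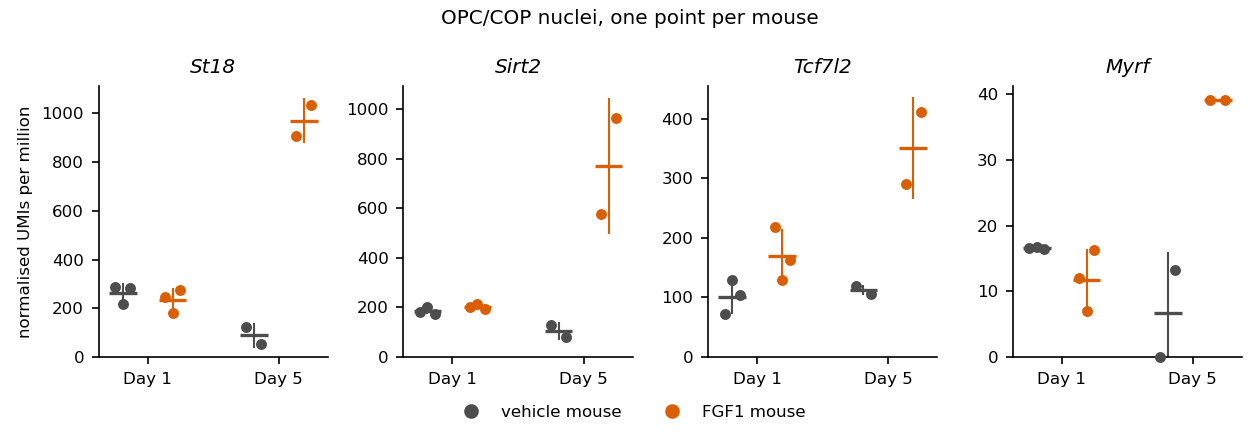
Normalised CPM of St18, Sirt2, Tcf7l2 and Myrf in OPC/COP nuclei of each mouse on Day 1 and Day 5, with group mean and SD. On Day 5 both FGF1 mice stand above both vehicle mice for each of the 4 genes, of which Myrf was not called, and on Day 1 the groups overlap for St18, Sirt2 and Tcf7l2.

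The mix of stages among the OPC/COP nuclei moved with these differences. Nuclei with at least as many UMIs of COP markers as of OPC markers were 43 of 85 (50.6%, 95% exact interval 39.5 to 61.6%) and 151 of 202 (74.8%, 95% exact interval 68.2 to 80.6%) in the FGF1 mice of Day 5. They were 3 of 52 (5.77%, 95% exact interval 1.21 to 15.9%) and 0 of 17 in the vehicle mice, where 3 counts of the total would be 17.6% and the 95% exact upper limit is 19.5%. On Day 1 the share was at most 10.3% with FGF1 and 9.52 to 13.0% with vehicle. On Day 5 the summed OL markers in these nuclei were at 1717 to 2692 CPM with FGF1 and 216 to 665 CPM with vehicle, the COP markers at 1184 to 1507 CPM with FGF1 and 312 to 367 CPM with vehicle, and the OPC markers at 1032 to 1638 CPM with FGF1 and 2158 to 2383 CPM with vehicle. Of the markers of other cell types, those of neurons (2909 to 2922 CPM with FGF1 and 2386 to 2619 CPM with vehicle), ependymal cells (27.2 to 51.4 CPM with FGF1 and 5.24 to 12.0 CPM with vehicle, 4 of 5 higher) and pericytes (2.47 to 7.56 CPM with FGF1 and 36.7 to 59.9 CPM with vehicle, 0 of 5 higher) also did not overlap, and their part in these differences was not tested.

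Among nuclei with more OPC than COP marker UMIs, a split added after the data were seen, no member was called. Unscaled St18 was at 206 and 513 CPM in FGF1 mice and 77.0 and 48.0 CPM in vehicle mice (2.40, edgeR FDR 0.2). Sirt2 was at 157 and 531 CPM against 55.0 and 71.9 CPM (2.46, edgeR FDR 0.445). Tcf7l2 overlapped between groups, at 39.2 and 221 CPM against 77.0 and 95.9 CPM (0.62, edgeR FDR 0.914). In the other nuclei, St18 was at 1410 and 1124 CPM in the FGF1 mice of Day 5 and at 718 to 1488 CPM in the 6 mice of Day 1, which had 2 to 7 such nuclei each. The 3 such nuclei of the Day 5 vehicle mice, all of mouse 28, held St18 at 772 CPM (7 UMIs), below both FGF1 mice. Sirt2 in these 3 nuclei was at 1323 CPM (12 UMIs), above the 867 and 1019 CPM of the FGF1 mice, and Tcf7l2 at 661 CPM (6 UMIs), above their 478 and 439 CPM.

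The effect of FGF1 on OPC/COP nuclei differed between days, tested as an interaction over the 4 groups, for St18 (3.51 ± 0.46, edgeR FDR 0.000765) and Sirt2 (2.65 ± 0.46, edgeR FDR 0.0153). This interaction was called for 0.102% of 5875 genes. Nuclei of Day 1 were in batches 3 to 5 and those of Day 5 in batches 1 and 2, and the fit had no batch term. Day and batch therefore cannot be told apart here. Vehicle St18 was at 218 to 287 CPM on Day 1 and at 53.2 and 125 CPM on Day 5, from 4 and 21 UMIs. Vehicle Sirt2 was at 175 to 202 CPM on Day 1 and at 79.8 and 131 CPM on Day 5, from 6 and 22 UMIs. The part of these lower vehicle levels in the interaction was not tested. It was not called for Tcf7l2 (0.89 ± 0.51, edgeR FDR 0.89), Sox10 (1.18 ± 0.49, edgeR FDR 0.746) or Olig1 (-0.98 ± 1.08, edgeR FDR 0.954).

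In oligodendrocyte nuclei on Day 5, 5 of 9 genes passed the filter and edgeR called 0, against 0.119% of 8407 genes, with 1 at an unadjusted p under 0.05 and 0 called by DESeq2. That 1 was St18, at 607 and 784 CPM in FGF1 mice and 429 and 575 CPM in vehicle mice (0.43 ± 0.20, edgeR FDR 0.716). Sirt2 was at 103 and 134 CPM in FGF1 mice and 98.8 and 119.9 CPM in vehicle mice (0.20 ± 0.27, edgeR FDR 0.939). The interaction with day was called by edgeR for 0 of the 5 members tested in these nuclei, 0 of which had an unadjusted p under 0.05, and DESeq2 called 0, against 0% of 8914 genes called by edgeR.

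In whole cells on Day 5, COPs of FGF1 mice held more Sirt2. It was the 1 member called of 9 tested, against 1.25% of 4171 genes. Sirt2 ran from 5992 to 8472 CPM (median 7417) in FGF1 mice and from 3927 to 4754 CPM (median 4585) in vehicle mice. The groups did not overlap, which held for 1.94% of genes, and FGF1 was higher in 6 of 6 batches, each of which held 1 mouse per group. The difference was 1.63-fold (0.71 ± 0.12, edgeR FDR 0.000518, rank 4).

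The other 8 genes were not called in COPs. Olig1 was at 393 to 634 CPM against 441 to 821 CPM (-0.43 ± 0.17, edgeR FDR 0.256), and Tcf7l2 at 569.7 to 1002 CPM against 667 to 1586 CPM (-0.39 ± 0.20, edgeR FDR 0.419). For Olig2, Sox10, Nkx2-2, Myrf, St18 and Zfp488 the log2 fold change was -0.29 to 0.20, and vehicle COPs held only 27 UMIs of St18 and 43 of Zfp488. The summed COP markers were at 5265 to 7294 CPM with FGF1 and 4405 to 6699 CPM with vehicle, 4 of 5 of them higher with FGF1, and their part in the Sirt2 result was not tested.

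OPCs of FGF1 mice held less Olig2. Of 9 genes, 7 passed the filter and 1 was called, against 3.24% of 5529 genes. The class merges cluster 5 with cluster 17, led by the cell division genes Ube2c, Pbk and Top2a, which held 3.07 to 15.6% of FGF1 and 0 to 1.28% of vehicle OPCs per mouse. Olig2 ran from 358 to 450.4 CPM (median 393) in FGF1 mice and from 485 to 604 CPM (median 557) in vehicle mice. The groups did not overlap, which held for 1.94% of genes, and FGF1 was lower in 6 of 6 batches, 1.39-fold on average (-0.48 ± 0.11, edgeR FDR 0.0077). After thinning, an Olig2 UMI was found in 28.1% of FGF1 and 38.6% of vehicle OPCs (median 1234 and 1257.5 UMIs, 405 and 590 shallower cells left out). The share was 1.87% and 1.51% in microglia, which should lack the gene (median 1296.5 and 1242 UMIs).

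Olig1, the neighbour of Olig2 on chromosome 16, was at 1177 to 1499 CPM against 1275 to 1637 CPM in OPCs (-0.16 ± 0.11, edgeR FDR 0.457). Sox10 (-0.08 ± 0.12), Nkx2-2 (0.09 ± 0.16), Zfp488 (-0.10 ± 0.24), Sirt2 (0.10 ± 0.13) and Tcf7l2 (-0.30 ± 0.17, edgeR FDR 0.372) were not called. Myrf, not tested, had 28 UMIs with FGF1 and 90 with vehicle, at 2.96 to 29.3 CPM against 19.2 to 35.7 CPM, and St18 had 1 and 6 UMIs. The summed COP markers in OPCs were at 942 to 1144 CPM with FGF1 and 1211 to 1494 CPM with vehicle, without overlap, although 3 of 5 were higher on average with FGF1, and the OPC markers at 2949 to 3485 CPM with FGF1 and 2886 to 3674 CPM with vehicle. The part of the lower COP marker sum in the Olig2 result was not tested.

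In the merged OL class edgeR called 0 of 9 genes, against 2.25% of 8438 genes, with 2 at an unadjusted p under 0.05, while DESeq2 called 1. Sirt2 ran from 658 to 1113 CPM (median 856) in FGF1 mice and from 516 to 825 CPM (median 614) in vehicle mice, overlapping, and was higher in 6 of 6 batches (0.45 ± 0.13, edgeR FDR 0.0668). It was called with DESeq2 (adjusted p = 0.037), with batch as a block (edgeR FDR 0.0333), and without FGF1 mouse 28 (FDR 0.0179), vehicle mouse 22 (FDR 0.0488) or vehicle mouse 35 (FDR 0.0185). Zfp488 was at 16.6 to 34.3 CPM against 11.0 to 29.4 CPM (0.55 ± 0.22, edgeR FDR 0.179). The share of cluster 11 among OLs was 11.3 to 81.3% of FGF1 and 0.964 to 7.62% of vehicle cells, and its part in these values was not tested. The remaining 7 had log2 fold changes from -0.28 (Tcf7l2) to 0.22 (Sox10).

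Within the OL class, Sirt2 fell in cluster 11, the one called of 5 genes tested there, against 6.63% of 1613 genes. It ran from 1185 to 1609 CPM (median 1256) in FGF1 mice and from 1815 to 2203 CPM (median 1974) in vehicle mice, without overlap, as held for 2.42% of genes, and was lower with FGF1 in 6 of 6 batches. The difference was 1.47-fold (-0.56 ± 0.13, edgeR FDR 0.00699). Cluster 11 held 89 to 487 cells per FGF1 mouse and 17 to 56 per vehicle mouse. Olig1 (-0.42 ± 0.16, edgeR FDR 0.11) and Olig2 (-0.54 ± 0.24, edgeR FDR 0.195) were not called.

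In cluster 2, edgeR called 0 of 9 genes, against 0.904% of 7187 genes, and 0 had an unadjusted p under 0.05. Sirt2 there was at 532 to 799 CPM against 429 to 726 CPM (0.19 ± 0.13, edgeR FDR 0.631). In cluster 12, where 4 FGF1 mice had at least 10 cells, edgeR called 0 of 6, against 0.0888% of 2251 genes, with 1 at an unadjusted p under 0.05, Sirt2 at 1137 to 1572 CPM against 629.7 to 1251 CPM (0.55 ± 0.17, edgeR FDR 0.151), which was called without vehicle mouse 35 (FDR 0.0235). Over all single clusters of the lineage, edgeR called 3 results and DESeq2 3. In cluster 5, the larger OPC cluster, 1 of 7 genes was called, against 2.39% of 5235 genes. This was Olig2, at 353 to 476 CPM against 495 to 605 CPM (-0.46 ± 0.11, edgeR FDR 0.016), a call lost without FGF1 mouse 7 (FDR 0.0685).

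**Figure D3:**
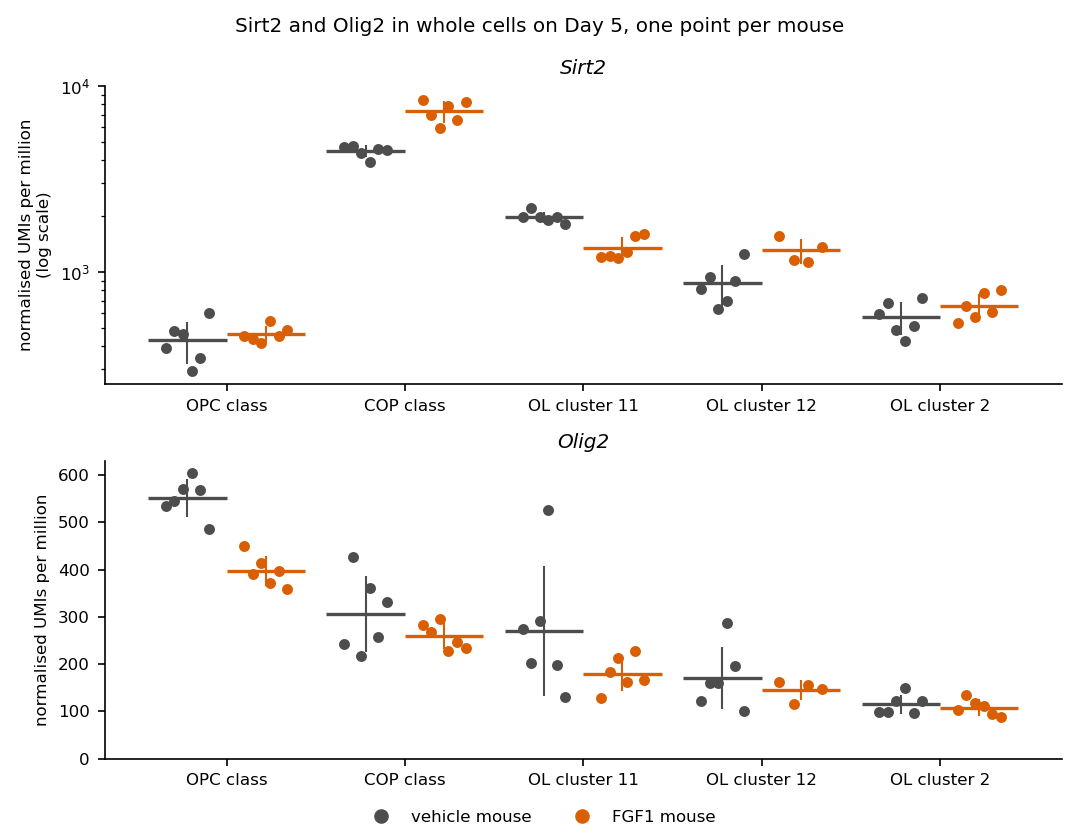
Normalised CPM of Sirt2 (log axis) and Olig2 in each mouse on Day 5, for OPCs, COPs and OL clusters 11, 12 and 2, with group mean and SD. FGF1 points of Sirt2 lie above all vehicle points in COPs and below all of them in cluster 11, and FGF1 points of Olig2 lie below all vehicle points in OPCs.

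Whether the effect of FGF1 differed between classes was tested on the difference of log2(CPM + 5) between 2 classes of the same mouse, by exact two-sided permutation over the 924 splits of 6 against 6 mice, with 23 tests in the family. These splits ignored batch, although each batch held 1 mouse per group. The same holds for the permutation tests of clusters and shares below, and no version within batches was run. The effect on Sirt2 was larger in COPs than in OPCs by 0.56 ± 0.14 (SE, exact permutation p = 0.00216, the smallest possible, adjusted p = 0.0498). The effect on Olig2 was higher in OLs than in OPCs by 0.49 ± 0.13 (exact permutation p = 0.00433, adjusted p = 0.0498). The OL class merges clusters that the groups filled differently. Cluster 11 held 11.3 to 81.3% of FGF1 and 0.964 to 7.62% of vehicle OLs per mouse. Its summed vehicle Olig2 level was 188 CPM, against 104 CPM in cluster 2. Within cluster 11, Olig2 was lower on average with FGF1 and was not called, as given above. The part of this make-up in the Olig2 difference was not tested. No other test of the 23 passed, and leaving out any 1 FGF1 mouse left 0 past the threshold, and leaving out vehicle mouse 20, 22, 25, 29 or 35 left 1.

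Between COPs and single OL clusters, a family of 19 tests added after the data were seen, 3 passed, all of Sirt2. The effect was higher in COPs than in cluster 11 by 1.26 ± 0.11 (exact permutation, adjusted p = 0.0206) and than in cluster 2 by 0.50 ± 0.14 (exact permutation, adjusted p = 0.0206). The difference of cluster 11 from cluster 2 was -0.76 ± 0.15 (exact permutation, adjusted p = 0.0274).

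The make-up of the lineage differed in the same mice. COPs were 26.2 ± 7.97% with FGF1 and 2.11 ± 0.985% with vehicle of lineage cells (SD, n = 6 and 6, exact permutation, adjusted p = 0.00649). OLs were 50.3 ± 11.6% with FGF1 and 69.2 ± 9.24% with vehicle (exact permutation, adjusted p = 0.0292), a result that did not pass without FGF1 mouse 21 or without vehicle mouse 20. OPCs were 23.5 ± 7.43% with FGF1 and 28.6 ± 8.52% with vehicle (exact permutation, adjusted p = 0.32). Cluster 11 was 21.6 ± 18.1% with FGF1 and 2.38 ± 1.84% with vehicle, with 56.0% in FGF1 mouse 10, and cluster 2 was 25.6 ± 13.7% with FGF1 and 57.7 ± 7.52% with vehicle. The clusters were formed on all genes of both groups, so shares can move with the genes that define them. In nuclei of Day 5, the OPC/COP share of lineage nuclei overlapped, at 32.3 to 42.9% with FGF1 and 22.2 to 35.4% with vehicle. Shares were also taken of all deposited nuclei barcodes, those labelled as filtered by silhouette score included. On Day 5 the OPC/COP share of these was 3.50 to 3.83% with FGF1 and 1.63 to 2.88% with vehicle, without overlap (exact permutation p = 0.333, the smallest possible). That of oligodendrocyte nuclei overlapped. On Day 1, oligodendrocyte nuclei were 3.30 to 4.74% of all deposited barcodes with FGF1 and 5.37 to 7.16% with vehicle, without overlap (exact permutation p = 0.1, the smallest possible). Their share of lineage nuclei overlapped, at 61.5 to 70.7% with FGF1 and 58.0 to 75.0% with vehicle.

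**Figure D4:**
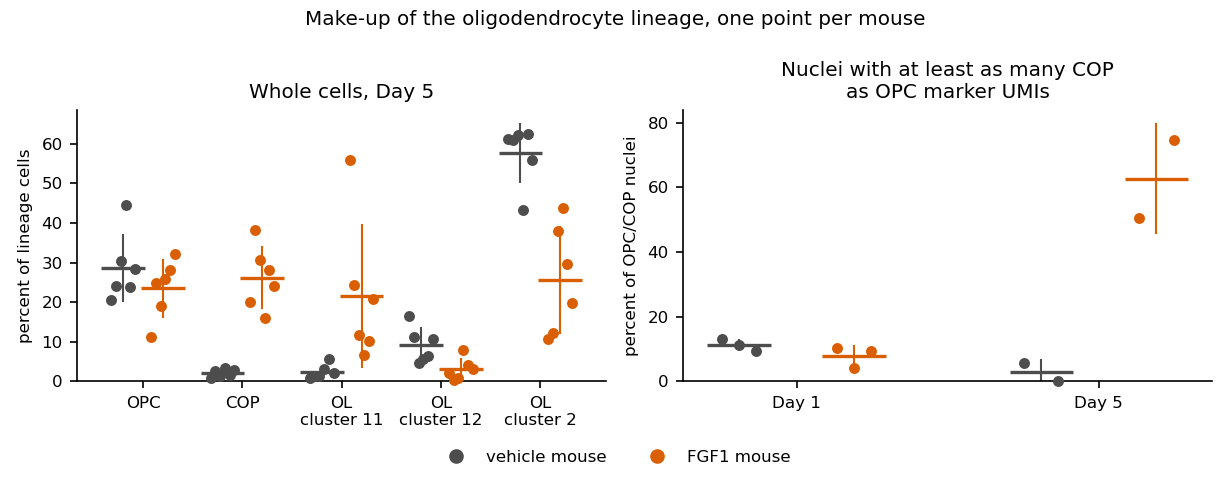
Share of lineage cells in each class or OL cluster per mouse among whole cells on Day 5, and share of OPC/COP nuclei with at least as many COP as OPC marker UMIs per mouse on Day 1 and Day 5, in percent, with means and SDs. COP shares of the 6 FGF1 mice (16.0 to 38.3%) lie above those of the 6 vehicle mice (0.870 to 3.42%).

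The astrocyte class merges cluster 1 with cluster 4, which is led by Gfap, and the groups filled them differently: cluster 4 held 47.9 to 93.1% of FGF1 and 3.74 to 18.4% of vehicle astrocytes per mouse. Of tanycytes, cluster 7 held 5.69 to 94.3% of FGF1 and 30.9 to 63.9% of vehicle cells, the rest being cluster 10. Values of both classes are therefore also given by cluster, an analysis added after the data were seen.

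In whole cells outside the lineage, Sirt2 was higher with FGF1 in astrocytes, at 233 to 337 CPM against 149 to 187 CPM (0.84 ± 0.11, edgeR FDR 6.5e-06), where 12.6% of 9830 genes were called. It was higher in endothelial cells, at 199 to 271 CPM against 83.4 to 139 CPM (0.87 ± 0.13, edgeR FDR 0.000835, 0.948% of 6329 genes called), in tanycytes, at 124 to 275 CPM against 109 to 181 CPM (0.66 ± 0.16, edgeR FDR 0.0409, 1.36% of 5092 genes called), and in unnamed cluster 0 (0.57 ± 0.12, edgeR FDR 0.00342, 5.27% of 9441 genes called). Tanycytes overlapped between groups. Astrocytes, endothelial cells and cluster 0 did not, as held for 5.16%, 0.885% and 2.56% of genes there. Sirt2 was not called in microglia (0.59 ± 0.20, edgeR FDR 0.199, 0.262% of 2676 genes called) or ependymal cells (0.28 ± 0.15, edgeR FDR 0.422, 1.28% of 6734 genes called). Within astrocyte clusters, Sirt2 was higher in cluster 1, at 273 to 362 CPM against 149 to 189 CPM (0.87 ± 0.14, edgeR FDR 0.000192, 0.404% of 7679 genes called), and in cluster 4, at 237 to 371 CPM against 153 to 228 CPM (0.72 ± 0.16, edgeR FDR 0.0172, 0.385% of 5967 genes called), a call lost in cluster 4 with batch as a block (FDR 0.0839). It was higher in tanycyte cluster 7 (0.73 ± 0.16, edgeR FDR 0.0111, 1.94% of 4027 genes called), where 5 FGF1 mice had enough cells, and was not called in cluster 10 (0.43 ± 0.19, edgeR FDR 0.299, 2.13% of 2159 genes called).

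Sirt2 over the whole library moved with these values. It was at 704 to 1177 CPM of the library with FGF1 and 244 to 398 with vehicle, and COP cells held 55.6 to 75.3% and 6.47 to 15.1% of all Sirt2 UMIs. The summed COP markers in astrocytes were at 112 to 236 CPM with FGF1 and 53.6 to 191 CPM with vehicle, with 5 of 5 higher on average with FGF1, as were 5 of 5 in endothelial cells, 5 of 5 in cluster 0 and 3 of 5 in tanycytes. Astrocyte markers in cluster 0 were at 2846 to 3723 CPM with FGF1 and 4339 to 5821 CPM with vehicle, without overlap, with 1 of 6 higher on average with FGF1, and their part in the Sirt2 value there was not tested. After thinning, 26.0% of FGF1 and 14.9% of vehicle astrocytes had a Sirt2 UMI. The part of free RNA from COP cells in these differences was not tested.

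Astrocytes of FGF1 mice held less Olig2, at 11.3 to 32.9 CPM against 25.5 to 43.4 CPM (-0.93 ± 0.21, edgeR FDR 0.00298), and less Nkx2-2, at 19.4 to 37.2 CPM against 31.8 to 54.0 CPM (-0.50 ± 0.17, edgeR FDR 0.0455), a call lost with DESeq2 (adjusted p = 0.106). Neither gene was called within a single astrocyte cluster. Olig2 was at 0 to 75.8 CPM against 26.0 to 45.5 CPM in cluster 1 (-0.49 ± 0.30, edgeR FDR 0.609) and at 9.93 to 27.2 CPM against 11.8 to 59.0 CPM in cluster 4 (-1.05 ± 0.38, edgeR FDR 0.288), and Nkx2-2 had log2 fold changes of -0.38 ± 0.24 and -0.15 ± 0.35. Thinned shares of cells with an Olig2 UMI were 1.94% of FGF1 and 3.16% of vehicle astrocytes, beside the shares in microglia given above. Tcf7l2 in astrocytes was at 122 to 148 CPM against 149.6 to 168 CPM, without overlap, and was not called (-0.27 ± 0.10, edgeR FDR 0.0848), and it overlapped within each cluster. In nuclei, no member was called in any type outside the lineage. Astrocyte nuclei had 0 of 4 tested members called on Day 1 (94 of 6063 genes called) and 0 of 5 on Day 5 (53 of 8484). Tanycyte nuclei of Day 1 had 0 of 3 (323 of 3534 genes called). These comparisons held 3 mice per group on Day 1 and 2 on Day 5.

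Genes that act around the 9 regulators were followed as lists. In OPC/COP nuclei on Day 5, 5 of 8 early differentiation genes were higher with FGF1 and 0 lower (median log2 fold change 2.26, against 0.00 over all genes tested, of which 1.28% were called). They included Enpp6 (4.12 ± 0.53, edgeR FDR 2.26e-05), Bcas1 (2.58 ± 0.30, edgeR FDR 1.02e-05) and the kinase gene Fyn (2.47 ± 0.30, edgeR FDR 1.24e-05). Of 15 myelin and maturation genes, 8 were tested and 4 were higher, among them Mbp (2.33 ± 0.33, edgeR FDR 0.000113), with a median of 2.22. Bcas1, Enpp6, Bmp4 and Mbp are also among the markers summed above. A gene could pass the count filter through 1 group alone, as Myrf did in these nuclei with 1 vehicle UMI. Enpp6 was at 215 to 359 CPM with FGF1 and 13.3 to 17.8 CPM with vehicle. Bmp4 was at 67.0 to 98.7 CPM with FGF1 and 11.9 to 13.3 CPM with vehicle. The counts and medians of these lists can lean toward such genes and are a description. Of 22 genes known to promote differentiation, cofactors included, 14 were tested and 1 was higher, Zeb2 (1.63 ± 0.28, edgeR FDR 0.00143), and of 16 inhibitors 5 were tested and 1 was higher, Bmp4 (2.74 ± 0.66, edgeR FDR 0.0302). Bmp4 is on the early differentiation list as well and did not pass with batch as a block (FDR 0.0692).

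In whole cells, 6 of 15 myelin and maturation genes were higher in the OL class and 0 lower, led by Mal (0.77 ± 0.16, edgeR FDR 0.00952) and Opalin (0.73 ± 0.17, edgeR FDR 0.0326), with a median of 0.35, where 2.25% of all genes were called. Mal and Opalin are among the top 10 genes of cluster 11, which held 11.3 to 81.3% of FGF1 and 0.964 to 7.62% of vehicle OLs per mouse, so the merged class differs in make-up between groups. In cluster 2 edgeR called 0 of these 15, with 5 at an unadjusted p under 0.05 and 1 called by DESeq2. In cluster 11, Mag was lower (-0.98 ± 0.15, edgeR FDR 6.27e-05) and the transferrin gene Trf higher (0.72 ± 0.21, edgeR FDR 0.042), and the cofactor Tcf4 was lower (-0.57 ± 0.17, edgeR FDR 0.0337), where 6.63% of all genes were called. COPs had 2 of 8 early differentiation genes higher, Bcas1 (0.56 ± 0.13, edgeR FDR 0.0172) and Fyn (0.52 ± 0.13, edgeR FDR 0.0279), where 1.25% of all genes were called. OPCs had 1 of 8 lower, Neu4 (-0.50 ± 0.12, edgeR FDR 0.0142), where 3.24% of all genes were called. Fyn (0.54 ± 0.12, edgeR FDR 0.012), Zeb2 (0.42 ± 0.11, edgeR FDR 0.0418) and the inhibitor Id3 (0.79 ± 0.16, edgeR FDR 0.00695) were higher in the OL class. Of the alternatives run, 7 of 18 did not pass for Fyn in COPs and 5 of 18 for Bcas1, 8 of 17 for Zeb2 and 7 of 17 for Opalin in OLs, and 8 of 15 for Trf in cluster 11. Tcf4 was not called with DESeq2 (adjusted p = 0.0742) or with batch as a block (FDR 0.0575).

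Of 10 Wnt genes and 6 other sirtuins, at most 3 and 6 were tested in any of the 7 class or type comparisons, and edgeR called 0 of either list. Of these, 0 and 0 had an unadjusted p under 0.05, and DESeq2, which also tests low genes, called 1 and 0. On Day 1, 1 of 14 tested myelin genes was higher in oligodendrocyte nuclei, Gjb1 (3.04 ± 0.43, edgeR FDR 0.0131), and 2 were lower, Aspa (-1.83 ± 0.33, edgeR FDR 0.0383) and Mog (-1.56 ± 0.27, edgeR FDR 0.0358), where 0.222% of all genes were called. With batch as a block none of the 3 passed, at an FDR of 0.0878 for Gjb1, 0.265 for Aspa and 0.234 for Mog. Among nuclei with at least 3 UMIs of OL markers, the share of which differed between groups as given above, Aspa (FDR 0.0686) and Mog, itself such a marker (FDR 0.0815), did not pass either, and Gjb1 did (FDR 0.0164). In all, 3 of 12 alternatives did not pass for Gjb1, 8 of 12 for Aspa and 8 of 12 for Mog.

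**Figure D5:**
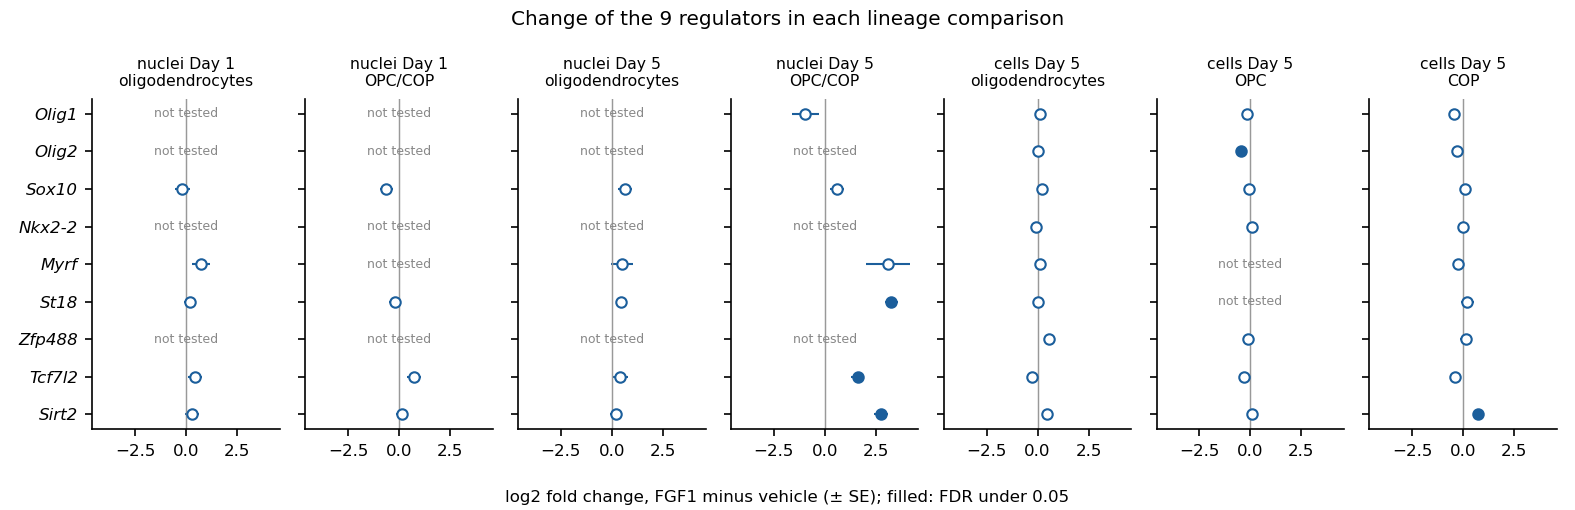
Log2 fold change (FGF1 minus vehicle, ± SE) of the 9 regulators in each of the 7 lineage comparisons, with filled points for an edgeR FDR under 0.05. Filled points are St18, Sirt2 and Tcf7l2 in OPC/COP nuclei on Day 5, Olig2 in OPCs and Sirt2 in COPs, and the open Myrf point in OPC/COP nuclei on Day 5 rests on 1 vehicle UMI.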

How the data were processed

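The authors ran Cell Ranger 1.2 on GRCm38, counting intronic reads of nuclei too, and deposited raw counts of UMIs per gene and barcode. Their deposited metadata give mouse, batch, cluster or type and the percent of mitochondrial and ribosomal UMIs, and a limit of 20% on each was an alternative. They removed likely doublets (Scrublet) and neurons from the cells, no doublet step was run on nuclei, and none was added here. Clusters were named where at least 3 markers were in 10% of cells at 2 times the level elsewhere. Counts were summed per mouse and type (at least 10 cells), filtered (filterByExpr), TMM-scaled and tested with edgeR 4.0.16 in R 4.3.3 (robust quasi-likelihood, no covariates) at a Benjamini-Hochberg FDR under 0.05 over all genes tested; standard errors come from the F statistic. DESeq2 1.42.0, other scaling and filters, blocks and left-out mice were alternatives. The scripts were tested on simulated data. Libraries held 2652897 to 16345981 UMIs, and intervals cover counting error only. Named were the 9 members, up to 4 called genes per list and the closest patterns. Members and lists were chosen with earlier results of these data known. Batches are those of the metadata, and same-numbered mice of Day 1 were not paired (r -0.27 to 0.20).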

Additional observations from a re-analysis of the deposited data

Results flagged for a closer look

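Of 78 groups of 4 to 10 mice examined, 3 held a mouse set apart from the rest of its group, where chance alone sets apart about 1 group in 20. In OLs, Olig1 was at 663 CPM in FGF1 mouse 7, with the next mouse at 533 CPM. Olig2 in the same class was at 176 CPM in vehicle mouse 27, with the next at 124 CPM. Myrf in cluster 11 was at 562 CPM in FGF1 mouse 6, with the next at 383 CPM.

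The effect of FGF1 differed between groups in 7 results. In OPC/COP nuclei it was larger on Day 5 than on Day 1 by 3.51 (log2) for St18 and by 2.65 for Sirt2. Day and batch cannot be told apart in these nuclei. In cells the effect on Sirt2 was higher in COPs than in OPCs by 0.56, than in cluster 11 by 1.26 and than in cluster 2 by 0.50, and differed between cluster 11 and cluster 2 by -0.76. The effect on Olig2 was higher in OLs than in OPCs by 0.49, where the groups filled the clusters of the OL class differently. No explanation of these differences was tested.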

How the results depend on the processing

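Over all alternatives run, Sirt2 in COPs (0.55 to 1.05, 18 settings), Olig2 in OPCs (-0.52 to -0.45, 17 settings) and Sirt2 in cluster 11 (-0.61 to -0.49, 15 settings) kept their direction and side of the threshold, and no result reversed. The 3 members called in OPC/COP nuclei on Day 5 became 0 among nuclei with more OPC than COP marker UMIs, with fewer nuclei, where St18 was at 2.40, Sirt2 at 2.46 and Tcf7l2 at 0.62. Where leaving out a mouse left 1 in a group, it was assumed to vary like the others. In OLs the 0 members called became 1 (Sirt2) with DESeq2, 1 with the batch as a block, and 0 to 1 when 1 mouse was left out. The 2 differences between classes became 0 to 2 and the 2 shares 1 to 2 when 1 mouse was left out. The share of vehicle COP cells with a Sirt2 UMI was 93.7% thinned and 98.2% unthinned. The cause of the other changes was not tested. In COPs the median of all genes shifted to 0.32 without a filter and -0.37 with DESeq2, where Sirt2 was at 1.05 and 0.68. With the replicate block, 0 members were called in both Day 1 comparisons, as without it. In lineage nuclei Olig2, Nkx2-2 and Zfp488 passed the count filter in no comparison with vehicle, and none was called by edgeR without the filter.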
